A study of Mus musculus with 15 samples.

Results

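Nuclear receptors are transcription factors that bind DNA directly, and many are switched by a small lipid-soluble ligand such as thyroid hormone, retinoic acid or an oxysterol. The 35 genes described here are the nuclear receptors left once the corticosteroid receptors, the Rev-erb clock repressors and Ppara and Ppard are set aside. They were found by gene symbol in a table of 54532 genes, and all 35 had a row of their own. Of these, 24 were expressed highly enough to be tested, with 0.5 FPKM or more in 5 or more of the 15 libraries, and 11 were not. FPKM is the number of fragments scaled to gene length and library size, so levels of different genes can be set side by side on it.

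In the heart, many of these receptors set fuel use, contraction and growth. The oestrogen-related receptors switch on mitochondrial and fatty acid genes with the coactivators PGC-1alpha and PGC-1beta, and the thyroid hormone receptors act on the genes of myosin, calcium handling and pacemaking. RXR proteins are the shared partners with which the thyroid hormone, retinoic acid, PPAR, LXR and vitamin D receptors pair on DNA, whereas the NR4A receptors are induced within minutes to hours by stress, cAMP and calcium signals and work without a known classical ligand.

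The samples are whole-heart RNA of wild-type C57BL/6 mice whose aortic arch was banded to overload the heart, a procedure called TAC. The age given is 8 to 10 weeks, which cannot be the age at which hearts were taken 8 weeks after TAC. Treatment by mouth began 4 weeks after banding, in randomised groups of 15 mice: physiological saline for the controls, donepezil at 5 mg/kg/day, or encenicline (EVP-6124) at 2 mg/kg/day. Donepezil inhibits acetylcholinesterase, the enzyme that breaks down acetylcholine. Encenicline activates the alpha7 nicotinic receptor. The hearts are labelled as taken 8 weeks after TAC, and the study asked which kind of drug does more for the failing heart. Every group carries the band, and no unoperated heart was analysed here. Each group has 5 libraries, and both drug groups are compared with the same 5 saline libraries.

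Each library held 14496147 to 17176086 reads in genes, worked back from FPKM and length, of which 17.4 to 27.0% were mitochondrially encoded. The 12 cardiomyocyte markers summed to 14664 to 23863 FPKM per library, as a heart sample should give. Donepezil 4 stood apart from its group: 25893 genes were above 0 in it against 19789 to 20439 in the other 4, and the summed levels of 10 fibroblast markers (1037 FPKM, group median 207.9) and 8 atrial markers (915 FPKM, group median 116) were the highest of the 15. Groups follow the library titles, but the treatment field of the label names saline for donepezil 1 and donepezil for encenicline 1. Results below are given without donepezil 4, or without these 2 libraries, where that changes a call. In RNA from whole hearts, fewer cells of a type and less RNA per cell cannot be told apart.

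None of the 24 receptors tested passed an adjusted p under 0.05 with donepezil or with encenicline against saline. Between the drugs 1 of 24 passed: Nr2c1, the gene of the orphan receptor TR2, was lower with encenicline than with donepezil. Of the next in line, Rarg was lower with donepezil than in both other groups and just missed the threshold, and Thrb was higher with donepezil than with saline. The test was limma on log2(FPKM + 0.5), fitted to all 13396 genes tested with p-values adjusted over all of them by the Benjamini-Hochberg method and called at an adjusted p under 0.05. It called 284 genes of donepezil against saline (2.12%, with 1.18% higher and 0.941% lower), 0 of encenicline against saline (0%, although 1235 genes, 9.22%, had an unadjusted p under 0.05) and 125 of encenicline against donepezil (0.933%, with 0.44% higher and 0.493% lower). A fold change on this scale understates the change of genes near or under the pseudocount of 0.5 FPKM.

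At an unadjusted p under 0.05 the members numbered 5 of 24 in donepezil against saline (16.1% of all genes tested), 6 of 24 in encenicline against saline (9.22% of all) and 8 of 24 in encenicline against donepezil (15% of all). The 5 libraries of one group lay entirely above or below the 5 of the other for 1 member (Thrb) in donepezil against saline, where 3.9% of all genes did so. In encenicline against saline they did so for 3 members (Nr2c1, Rara and Esrrb), with 1.69% of all genes, and in encenicline against donepezil for 3 (Nr2c1, Nr4a3 and Rarb), with 4.07%. The median log2 fold change of the 24 was -0.00, 0.06 and 0.10 in the same order, and that of all genes tested was -0.00, 0.00 and 0.00. Above 0 were 12, 17 and 16 of the 24. With the values rescaled to TPM, the median of all genes itself moved to -0.07, -0.14 and -0.07 and the members above 0 became 9, 8 and 14, so the direction of small differences from saline depends on the scaling.

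**Figure D1:**
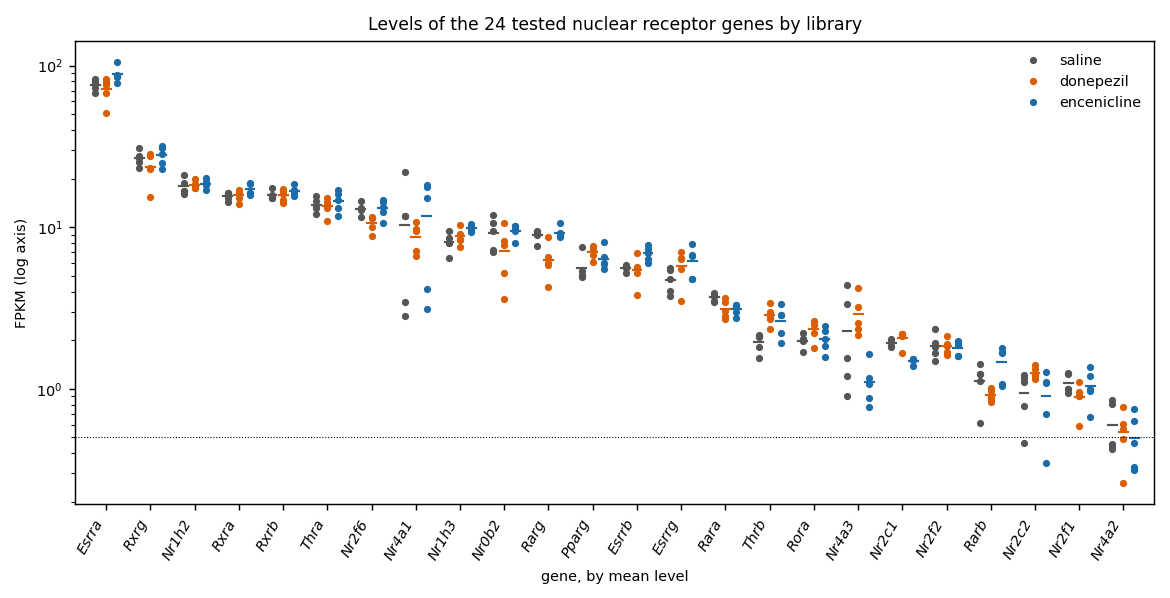
FPKM of the 24 tested nuclear receptor genes in each of the 15 libraries (points, log axis), ordered by the mean over all libraries, with short lines at the group means and a dotted line at 0.5 FPKM. Esrra stood highest at 78.6 FPKM and Nr4a2 lowest at 0.544, and Nr4a1 and Nr4a3 were the most scattered.

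Expression differed far more between receptors than between treatments. Esrra averaged 78.6 FPKM over the 15 libraries, at the 96.2 percentile of the genes tested, and was followed by Rxrg at 26.1 FPKM, Nr1h2 at 18.3, Rxra at 16.1, Rxrb at 16.1 and Thra at 13.9. Neighbours in this order, such as Nr1h2, Rxra and Rxrb, overlapped across libraries, whereas the lowest library of Esrra (50.9 FPKM) lay above the highest of Rxrg (31.9 FPKM). A middle band held Nr2f6 (12.3 FPKM), Nr4a1 (10.3), Nr1h3 (8.92), Nr0b2 (8.62), Rarg (8.15), Pparg (6.32), Esrrb (5.98) and Esrrg (5.55). The lowest 10 ran from Rara at 3.31 FPKM through Thrb (2.48), Rora (2.12), Nr4a3 (2.09), Nr2c1 (1.83), Nr2f2 (1.83), Rarb (1.16), Nr2c2 (1.04) and Nr2f1 (1.00) to Nr4a2 at 0.544 FPKM. In each family that has several members, 1 gene held most of the summed level in the saline hearts, as Esrra did with 88.0 ± 0.894% of the 3 oestrogen-related receptors (SD, n = 5). The same share was 87.5 ± 1.92% for Thra of the thyroid hormone receptors, 64.9 ± 1.92% for Rarg of the retinoic acid receptors and 81.6 ± 2.13% for Nr2f6 of the COUP-TF genes. The RXR genes were the exception with Rxrg at 46.1 ± 2.43% (SD, n = 5).

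The 2 thyroid hormone receptors, the ligand-switched regulators of myosin and calcium handling genes, split by abundance. Thrb, the less abundant one, gave 2.12, 2.10, 1.55, 1.81 and 2.14 FPKM in saline 1 to 5, then 2.999, 2.34, 2.72, 3.41 and 2.82 with donepezil and 2.85, 3.37, 2.84, 1.92 and 2.21 with encenicline. All 5 donepezil libraries lay above all 5 of saline, and 4 of the 5 encenicline libraries did so. The difference was 0.46 on the log2 scale (SE 0.13) for donepezil against saline and did not pass (limma, Benjamini-Hochberg adjusted p = 0.0735), nor did that of encenicline against saline (0.35, SE 0.13, limma adjusted p = 0.506). Thra, the main cardiac form, ranged from 10.995 to 17.1 FPKM over all libraries, and its log2 differences were -0.03, 0.07 and 0.10 in the 3 comparisons. For donepezil against saline its 95% confidence interval ran from -0.26 to 0.20. The exons of Thra share 5.70% of their bases with Nr1d1 on the opposite strand, and whether the counting used strand is not given in the sources used here. Thrb lies on chromosome 14 at 17660261 to 18038090 and Thra on chromosome 11 at 98740638 to 98769006 (GRCm38, as all coordinates in the table).

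Of 21 genes that supply thyroid hormone or respond to it, 17 were tested. With donepezil against saline 1 rose and 2 fell, at a median of 0.01: Ucp2, a mitochondrial carrier, rose (0.73, SE 0.17, limma adjusted p = 0.0405), and Myh7b, a slow myosin (-0.67, SE 0.14, limma adjusted p = 0.0234), and Slc16a10, a transporter of thyroid hormone and aromatic amino acids (-0.43, SE 0.09, limma adjusted p = 0.0278), fell. None was called in encenicline against saline (median 0.07). Against donepezil, encenicline had higher Hcn4, a pacemaker channel (0.71, SE 0.15, limma adjusted p = 0.0368), and Slc16a10 (0.50, SE 0.09, limma adjusted p = 0.0211), and lower Ucp2 (-0.91, SE 0.17, limma adjusted p = 0.0217), at a list median of 0.14. The calls made up 17.6% of the genes tested both in donepezil against saline (2.12% of all genes) and in encenicline against donepezil (0.933% of all). Without donepezil 4 the calls of this list became 0 up and 2 down for donepezil against saline and 1 up and 1 down between the drugs. In that fit 409 and 97 of all 13396 genes tested were called. Without the 2 libraries of conflicting label, 0 genes of this list were called in any comparison. With TPM the calls were 0 up and 2 down for donepezil against saline and 0 between the drugs, beside 162 and 53 of all genes.

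The retinoic acid receptors held the largest difference between the drugs among the ligand-switched receptors tested, that of Rarg, though it did not pass. Rarg, the most abundant of the 3, read 9.18, 9.46, 9.17, 7.68 and 9.01 FPKM with saline, 6.50, 4.26, 5.84, 8.73 and 5.99 with donepezil, and 8.65, 9.04, 10.6, 9.23 and 8.84 with encenicline. In 4 of 5 donepezil libraries Rarg was below every library of the other groups, and donepezil 4 at 8.73 was within the range of both. The log2 fold change was -0.50 (SE 0.13) for donepezil against saline (limma, Benjamini-Hochberg adjusted p = 0.0563) and 0.56 (SE 0.13) for encenicline against donepezil (limma adjusted p = 0.0507). Encenicline against saline gave 0.06 with a 95% confidence interval from -0.22 to 0.33. With donepezil 4 left out, Rarg passed in both comparisons with donepezil, at -0.62 (limma adjusted p = 0.00967) and 0.68 (limma adjusted p = 0.00745). With donepezil 2 left out instead, the differences shrank to -0.39 and 0.44. Over 29 alternatives of processing, Rarg passed in 3 and 4, with limma adjusted p up to 0.458 and 0.3685.

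Beside this, of 12 endothelial markers, all tested, 0 were called higher and 2 lower with donepezil against saline (16.7%, beside 2.12% of all genes). They were Emcn, a surface glycoprotein of vessels (-0.61, SE 0.09, limma adjusted p = 0.00407), and Kdr, a VEGF receptor (-0.68, SE 0.17, limma adjusted p = 0.0465). The 12 did not move one way: 4 were above 0 and 8 below, from -0.68 to 0.59 with a median of -0.11. Emcn was also higher with encenicline than with donepezil (0.59, SE 0.09, limma adjusted p = 0.00610), the 1 call of the list there (8.33%, beside 0.933% of all genes). The summed level of the 12 was 472 to 609.5 FPKM with saline, 520 to 650.6 with donepezil and 524 to 536 with encenicline. Of the 7 venous and lymphatic markers tested 1 (14.3%) fell with donepezil against saline, the apelin receptor Aplnr (-1.53, SE 0.29, limma adjusted p = 0.0146). Above 0 was 1 of the 7. The summed level of these markers was 58.6 to 88.0 FPKM with saline (mean 76.0), 52.7 to 60.3 with donepezil (mean 57.8) and 61.8 to 76.4 with encenicline (mean 69.2), so all 5 donepezil libraries lay below all 5 of encenicline and below 4 of the 5 saline libraries. Without the 2 libraries of conflicting label 1 of the 12 endothelial markers fell with donepezil, where 82 of all 13396 genes tested were called. Aplnr and the Emcn difference between the drugs were not called in that fit. In the lists for cardiomyocytes, atrial cardiomyocytes, fibroblasts, mural cells, macrophages, lymphocytes, adipocytes, Schwann cells, erythroid cells and epicardium 0 genes were called in any comparison, and in encenicline against saline no gene of any kind was. In that comparison all 5 erythroid markers tested had log2 differences below 0 with an unadjusted p under 0.05 (median -1.004). Of 10 fibroblast markers 8 were below 0 (median -0.40), none of them at an unadjusted p under 0.05. All 6 epicardial (median -0.43), 10 of 11 macrophage (-0.19) and 10 of 12 endothelial markers tested (-0.09) were below 0 too. Cardiomyocyte markers lay the other way, with 9 of 12 above 0 (median 0.13), as did the 1 adipocyte marker tested (0.25). The part of these cells in the Rarg difference, or in that of any other receptor, was not tested.

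Rara, the form found in most tissues, had 3.75, 3.505, 3.94, 3.46 and 3.77 FPKM with saline, 3.64, 3.01, 2.70, 3.43 and 2.81 with donepezil and 2.75, 3.25, 3.30, 2.98 and 3.29 with encenicline. Every encenicline library was below every saline library, and the donepezil libraries overlapped with saline. The log2 differences from saline were -0.22 (SE 0.08, limma adjusted p = 0.182) with donepezil and -0.21 (SE 0.08, limma adjusted p = 0.506) with encenicline. Rarb, itself a classical target of retinoic acid, had 1.24, 1.41, 1.11, 1.24 and 0.614 FPKM with saline, 0.870, 0.892, 0.827, 0.964 and 1.02 with donepezil and 1.799, 1.67, 1.70, 1.08 and 1.04 with encenicline. All 5 encenicline libraries lay above all 5 of donepezil, with encenicline 5 and donepezil 5 close together, and 3 encenicline libraries stood well above the other 12. That difference of 0.45 (SE 0.15) did not pass (limma adjusted p = 0.172), and 34.1% of the exon bases of Rarb are shared with Top2b on the other strand, so reads of the 2 genes may not be told apart. Summed over the 3 receptors, the level was 13.7 ± 0.837 FPKM with saline, 10.3 ± 1.88 with donepezil and 13.8 ± 1.04 with encenicline (each with its SD, n = 5). Rora, a constitutively active relative of these receptors, ranged from 1.58 to 2.62 FPKM, and Rorb stayed under 0.5 FPKM.

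Rarg lies on the minus strand of chromosome 15 at 102234938 to 102257517. The 250 bases before 1 of its 2 transcript starts in RefSeq (GRCm38.p6, chr15:102257523-102257772, minus strand) are shown because Rarg came closest to a call after Nr2c1. The capitals mark its 1 match to AGGTCA, the half-site that most of these receptors bind, read here on the reverse strand as TGACCT.
Rarg: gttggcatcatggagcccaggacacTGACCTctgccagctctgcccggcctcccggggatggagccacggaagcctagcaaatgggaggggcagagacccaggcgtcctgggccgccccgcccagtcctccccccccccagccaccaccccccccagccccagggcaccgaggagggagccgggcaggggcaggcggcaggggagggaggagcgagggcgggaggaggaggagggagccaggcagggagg

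Of 20 retinoid supply and target genes, 9 were tested and none was called in any comparison. Their medians were 0.01, 0.13 and -0.10 in donepezil against saline, encenicline against saline and encenicline against donepezil. Cyp26b1, an enzyme that breaks down retinoic acid, averaged 4.39 ± 5.05 FPKM with saline, 1.87 ± 0.601 with donepezil and 10.3 ± 6.59 with encenicline (each with its SD, n = 5), and its difference between the drugs of 1.94 (SE 0.53) did not pass (limma adjusted p = 0.0972). The enzymes and carriers Crabp1, Crabp2, Cyp26a1, Cyp26c1, Lrat and Stra6 were under the filter.

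**Figure D2:**
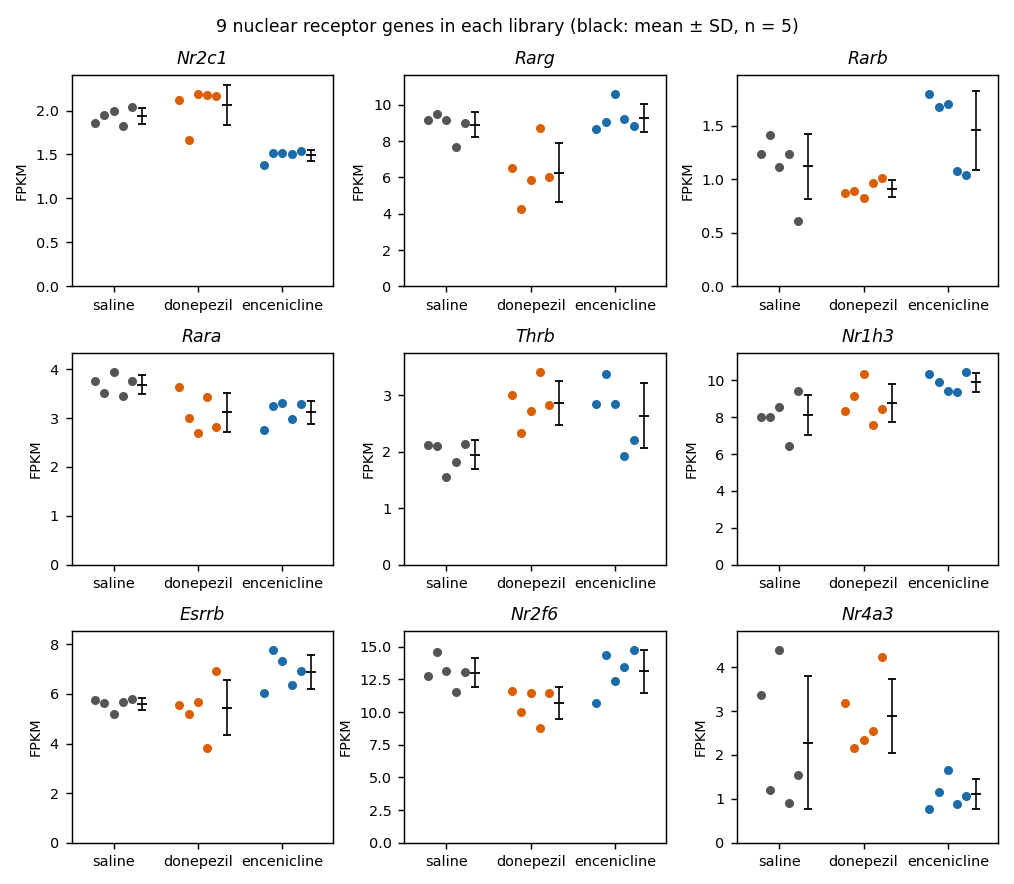
FPKM of 9 nuclear receptor genes in each library by group (points, in replicate order), with mean ± SD (n = 5) in black, each axis starting at 0. The 5 encenicline libraries of Nr2c1 lie between 1.38 and 1.54 FPKM, below all others, and 4 of 5 donepezil libraries of Rarg lie below all others.

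PPAR-gamma, the adipocyte regulator encoded by Pparg, was detected in every heart at 4.89 to 8.13 FPKM. Saline 5 at 7.52 FPKM stood away from the other saline libraries at 4.89 to 5.34, which all lay below the donepezil range of 6.11 to 7.67. The difference of 0.32 (SE 0.12) between donepezil and saline did not pass (limma adjusted p = 0.180), and without saline 5 it was 0.42 and passed (limma adjusted p = 0.0401). Over 29 alternatives of processing it passed in 2, with limma adjusted p up to 0.494. Pparg and its values were chosen for description after they were seen. The 8 adipocyte markers summed to 0.162 to 1.40 FPKM with saline, 0.436 to 3.12 with donepezil and 0.188 to 1.197 with encenicline, and 1 of 8, Cfd, passed the filter. Adipoq, Plin1 and Cidec were at 0 in at least 1 library and never above 0.487 FPKM. Of 12 PPAR-gamma and adipocyte genes 5 were tested and none was called, with medians of 0.42, 0.16 and -0.20. Without donepezil 4, 1 of the 5 was called, higher with donepezil than with saline. In that fit 409 of all 13396 genes tested were called, 214 of them higher. With all libraries the nearest was Fabp4, a fatty acid carrier of fat cells and capillaries, in donepezil against saline (0.42, SE 0.11, limma adjusted p = 0.0538).

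The oxysterol receptors, which sense cholesterol products, were both expressed. Nr1h3 (LXR-alpha) had 8.03, 7.99, 8.56, 6.46 and 9.44 FPKM with saline, 8.34, 9.14, 10.4, 7.56 and 8.46 with donepezil and 10.3, 9.89, 9.41, 9.35 and 10.5 with encenicline. The encenicline libraries were above 4 of the 5 saline libraries, and saline 5 lay among them. The difference of 0.28 (SE 0.09) did not pass (limma adjusted p = 0.503). Nr1h2 (LXR-beta), at 16.0 to 21.1 FPKM, was the steadier gene with a coefficient of variation of 7.73% over the 15 libraries, and its log2 differences were 0.03, 0.06 and 0.02.

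Of 18 LXR target genes 14 were tested, and the genes called did not move one way. With donepezil against saline Mylip, a ubiquitin ligase that degrades the LDL receptor, rose (0.78, SE 0.17, limma adjusted p = 0.0253), and Mid1ip1, an activator of fatty acid synthesis, fell (-0.71, SE 0.17, limma adjusted p = 0.0470), at a list median of 0.19. Mid1ip1 averaged 42.6 ± 9.51 FPKM with saline, 26.1 ± 6.92 with donepezil and 60.1 ± 7.98 with encenicline (each with its SD, n = 5) and was higher with encenicline than with donepezil (1.22, SE 0.17, limma adjusted p = 0.00373). The calls made up 14.3% of the genes tested in donepezil against saline (2.12% of all genes) and 7.14% in encenicline against donepezil (0.933% of all). None was called in encenicline against saline (median 0.09). Without donepezil 4 the calls became 2 up and 3 down for donepezil against saline and 2 up between the drugs. The list medians were then 0.08 and 0.03. Of all 13396 genes tested, that fit called 409 (214 up, 195 down) and 97 (49 up, 48 down). Without the 2 libraries of conflicting label the calls of this list were 1 up and 0 down, and 1 up between the drugs, beside 82 and 27 of all genes. With TPM they were 0 for donepezil against saline and 1 up between the drugs, beside 162 and 53 of all genes.

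Of the 3 RXR partners, Rxra and Rxrb were among the steadiest receptors over the 15 libraries and Rxrg was not. Rxra ranged from 13.9 to 18.9 FPKM and Rxrb from 14.1 to 18.4, with coefficients of variation of 8.23% and 7.21%. Their 95% confidence intervals for donepezil against saline were -0.13 to 0.17 and -0.15 to 0.15 on the log2 scale. Rxrg, the form enriched in striated muscle, ranged from 15.5 to 31.9 FPKM with a coefficient of variation of 16.1%, and its lowest value was in donepezil 4. Its log2 difference of donepezil from saline was -0.21 (SE 0.14, limma adjusted p = 0.534) and -0.07 without that library.

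Nr2c1 encodes TR2, an orphan receptor that binds direct repeats of AGGTCA, mostly as a repressor and in a pair with TR4 (Nr2c2). It read 1.85, 1.95, 2.00, 1.83 and 2.04 FPKM with saline, 2.12, 1.66, 2.19, 2.18 and 2.17 with donepezil and 1.38, 1.51, 1.52, 1.51 and 1.54 with encenicline. The 5 encenicline libraries were the lowest 5 of all 15, and donepezil 2 at 1.66 was the closest to them. Group means were 1.93 ± 0.0913, 2.06 ± 0.227 and 1.49 ± 0.0651 FPKM (SD, n = 5 each). Encenicline was lower than donepezil by a log2 fold change of -0.36 with an SE of 0.07, which passed (limma, Benjamini-Hochberg adjusted p = 0.0296). Against saline the difference of -0.29 (SE 0.07) did not pass (limma adjusted p = 0.428), in a comparison where no gene passed. Donepezil and saline differed by 0.07 with a 95% confidence interval from -0.08 to 0.22. These values rest on 85 to 174 reads per library.

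The direction held in all 29 alternatives of processing, of which 15 left out 1 library each, but the call did not. It was kept in 14 of the 29 and lost in 15, with log2 fold changes from -0.50 to -0.24 and adjusted p from 0.00955 to 0.452. Leaving out donepezil 1, 3 or 4 or any 1 of the encenicline libraries gave adjusted p from 0.0523 to 0.0839, and leaving out the 2 libraries of conflicting label gave -0.33 and 0.137 (limma with Benjamini-Hochberg adjustment).

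Nr2c1 lies on the plus strand of chromosome 10 at 94148023 to 94197211. The 250 bases before its start in RefSeq (GRCm38.p6, chr10:94147681-94147930, plus strand) are shown as those of the receptor that passed. The window holds 0 matches to AGGTCA, and the capitals mark 1 match to TGACG, the cAMP half-site, on the reverse strand as CGTCA.
Nr2c1: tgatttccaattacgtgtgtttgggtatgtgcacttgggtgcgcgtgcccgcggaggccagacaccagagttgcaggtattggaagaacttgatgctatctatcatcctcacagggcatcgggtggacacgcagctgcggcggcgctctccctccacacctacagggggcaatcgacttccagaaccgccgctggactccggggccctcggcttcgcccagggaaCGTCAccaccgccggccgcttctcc

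The 5 protein-coding genes whose levels within groups followed Nr2c1 most closely were Plin2, a lipid droplet coat protein (Spearman 0.84), Smad6, an inhibitor of BMP signalling (0.84), Colec11, a lectin of the complement system (0.80), Sept9, a septin of the cytoskeleton (0.79), and Git2, a regulator of Arf GTPases (0.79). These are correlations of log2 values centred on each group, over 15 libraries, as a description with no test. The partner gene Nr2c2 ranged from 0.346 to 1.41 FPKM, and 30.7% of its exon bases are shared with Mrps25 on the other strand. Its difference between the drugs was -0.38 (SE 0.19, limma adjusted p = 0.380), and the summed level of the pair was 2.88 ± 0.257 FPKM with saline, 3.32 ± 0.156 with donepezil and 2.39 ± 0.364 with encenicline (each with its SD, n = 5).

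**Figure D3:**
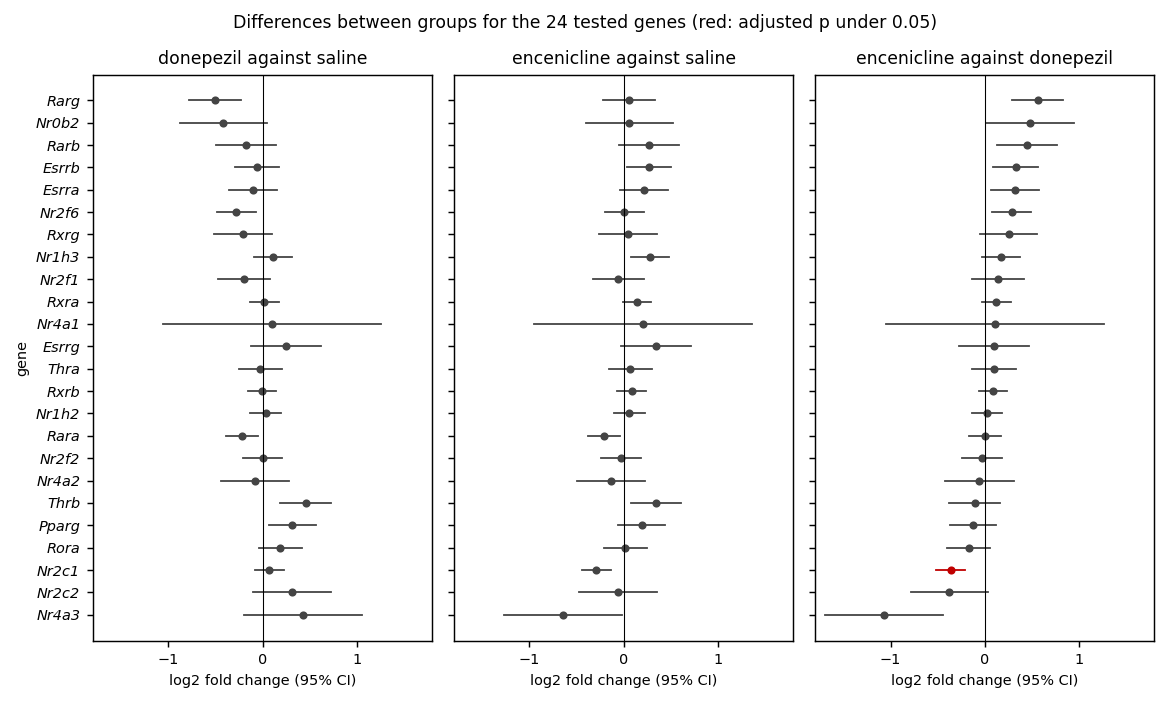
Log2 fold changes of the 24 tested nuclear receptor genes with 95% confidence intervals in the 3 comparisons, ordered by encenicline against donepezil, with genes that passed at an adjusted p under 0.05 in red. Nr2c1 in encenicline against donepezil (-0.36) is the one value in red, and Nr4a1 has the widest intervals.

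The COUP-TF genes, a family of repressors, were led in level by Nr2f6. It had 12.8, 14.6, 13.2, 11.5 and 13.0 FPKM with saline, 11.6, 10.0, 11.4, 8.79 and 11.4 with donepezil and 10.7, 14.4, 12.4, 13.4 and 14.7 with encenicline. The donepezil libraries sat at the low end, and only saline 4 and encenicline 1 fell within their range. The log2 differences of -0.28 (SE 0.10, limma adjusted p = 0.160) for donepezil against saline and 0.29 (SE 0.10, limma adjusted p = 0.183) for encenicline against donepezil did not pass. The exons of Nr2f6 share 54.4% of their bases with Ocel1 on the other strand, so its level is uncertain. Nr2f2 (COUP-TFII, of veins and atria) ranged from 1.497 to 2.34 FPKM and Nr2f1 from 0.592 to 1.36 FPKM, and the log2 differences of Nr2f2 were 0.00, -0.03 and -0.03.

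The oestrogen-related receptors were higher with encenicline in their means, and none passed. Esrrb had 5.77, 5.62, 5.20, 5.67 and 5.80 FPKM with saline, 5.57, 5.21, 5.69, 3.83 and 6.92 with donepezil and 6.04, 7.77, 7.33, 6.37 and 6.92 with encenicline. All 5 encenicline libraries were above all 5 of saline, whereas donepezil overlapped both. The differences were 0.27 (SE 0.11, limma adjusted p = 0.525) against saline and 0.33 (SE 0.11, limma adjusted p = 0.180) against donepezil. Esrra, the most abundant receptor, gave 82.5, 79.8, 67.3, 72.9 and 77.1 FPKM with saline, 79.5, 75.5, 68.1, 50.9 and 82.9 with donepezil and 85.2, 106, 77.6, 86.2 and 87.3 with encenicline. Encenicline 2 was the highest and donepezil 4 the lowest of the 15, and the groups overlapped. Its difference of 0.21 (SE 0.12) between encenicline and saline did not pass (limma adjusted p = 0.596). Esrrg, which is active in oxidative muscle, ranged from 3.48 to 7.86 FPKM with differences of 0.25, 0.35 and 0.10. Donepezil 4 had the lowest level of each of the 3 genes and the lowest sum of the cardiomyocyte markers, 14664 FPKM. Without it the differences of donepezil from saline moved from -0.11 to 0.01 for Esrra, from -0.06 to 0.05 for Esrrb and from 0.25 to 0.40 for Esrrg. Those of encenicline from donepezil moved from 0.32 to 0.20 for Esrra, from 0.33 to 0.22 for Esrrb and from 0.10 to -0.05 for Esrrg, whose direction thus turned, and none was called.

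Of 20 ERR target genes, most of them mitochondrial, all were tested and none was called in any comparison. Above 0 were 8 of 20 in donepezil against saline, 19 of 20 in encenicline against saline and 20 of 20 in encenicline against donepezil, with medians of -0.07, 0.16 and 0.21 beside medians of all genes of -0.00, 0.00 and 0.00. Both of the latter comparisons share the encenicline libraries. Without donepezil 4 the median was 0.06 in donepezil against saline, with 15 of 20 above 0, and 0.07 in encenicline against donepezil. With TPM the median of encenicline against saline was -0.00, with 10 of 20 above 0, beside a median of all genes that TPM moved to -0.14. The smallest p of the list in encenicline against saline was that of Fabp3, the fatty acid carrier of heart muscle (0.32, SE 0.14, limma adjusted p = 0.525). Between the drugs it was that of Perm1, a muscle regulator of PGC-1 and ERR genes (0.45, SE 0.15, limma adjusted p = 0.181). The 12 cardiomyocyte markers lay in the same directions, with 4, 9 and 9 above 0 in the 3 comparisons and medians of -0.04, 0.13 and 0.16. Whether the ERR genes or their targets differed apart from cardiomyocyte genes at large was not tested.

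**Figure D4:**
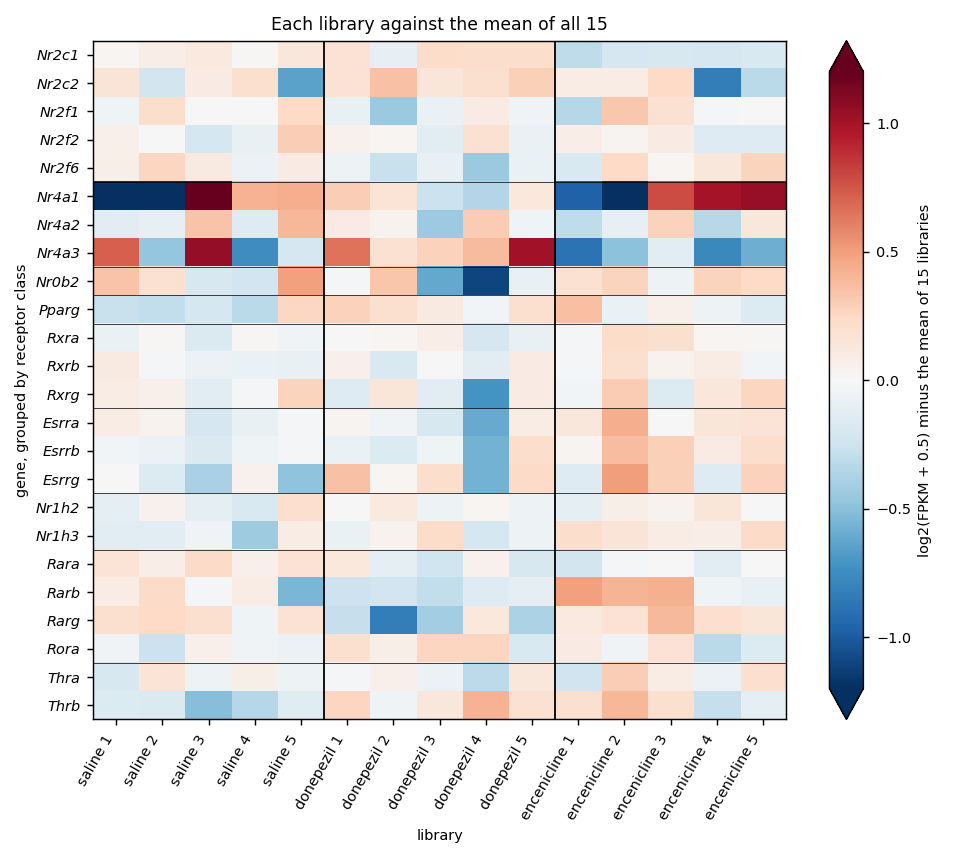
Log2(FPKM + 0.5) of the 24 tested nuclear receptor genes in each library minus the mean of all 15, grouped by receptor class, with vertical lines between treatment groups and colours that saturate at the ends of the scale. Donepezil 4 is the lowest library for Esrra, Esrrb, Esrrg, Rxrg and Nr0b2, and Nr4a1 varies most within the saline and encenicline groups.

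Nr4a1 and Nr4a3, of the NR4A class, had the widest spread over the 15 libraries of the 24 receptors tested. Nr4a1 (Nur77) had 3.44, 2.84, 22.05, 11.7 and 11.8 FPKM with saline, 10.7, 9.69, 7.14, 6.62 and 9.47 with donepezil and 4.14, 3.13, 15.2, 17.7 and 18.3 with encenicline. The saline and encenicline libraries each split into low and high values with none between 4.14 and 11.7 FPKM, and the donepezil libraries fell inside that gap. Its coefficient of variation was 58.3% over all libraries. The 95% confidence interval of donepezil against saline ran from -1.06 to 1.25 on the log2 scale. A 2-fold difference either way was thus not excluded. Nr4a3 (NOR-1) had 3.37, 1.1998, 4.39, 0.898 and 1.55 FPKM with saline, 3.19, 2.16, 2.35, 2.55 and 4.23 with donepezil and 0.772, 1.17, 1.65, 0.873 and 1.07 with encenicline. All 5 encenicline libraries were below all 5 of donepezil, and the saline libraries spanned both. The log2 difference of -1.07 (SE 0.29) between the drugs did not pass (limma adjusted p = 0.0964). It was the largest difference of any member. It passed in 2 of 29 alternatives of processing, without saline 3 (limma adjusted p = 0.0493) and in a fit to the 10 libraries of these groups alone (limma adjusted p = 0.0209). Over the 29 it ran from -1.43 to -0.69, with limma adjusted p up to 0.5255. Against saline it was -0.65 (SE 0.29, limma adjusted p = 0.537). Nr4a2 stayed at 0.260 to 0.855 FPKM.

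Nr4a1, Nr4a2 and Nr4a3 each have 4 copies of TGACG, the half-site of cAMP response elements, on either strand, in the 300-base RefSeq window from 250 bases before to 50 after the transcript start. Such windows with 4 copies or more make up 0.231% of the 32851 in the table and 3 of the 55 windows of members, and 20.8% of all and 25.5% of the members' windows have 1 or more. The motif was searched after the windows had been read, so the count is a description. The 250 bases before each start follow, from GRCm38.p6, with every TGACG or CGTCA in capitals: chr15:101266596-101266845 on the plus strand for Nr4a1, chr2:57124004-57124253 on the minus strand for Nr4a2 and chr4:48045055-48045304 on the plus strand for Nr4a3. The Nr4a1 start lies 12577 bases inside the gene as the deposited table bounds it, and the Nr4a3 start 152 bases.
Nr4a1: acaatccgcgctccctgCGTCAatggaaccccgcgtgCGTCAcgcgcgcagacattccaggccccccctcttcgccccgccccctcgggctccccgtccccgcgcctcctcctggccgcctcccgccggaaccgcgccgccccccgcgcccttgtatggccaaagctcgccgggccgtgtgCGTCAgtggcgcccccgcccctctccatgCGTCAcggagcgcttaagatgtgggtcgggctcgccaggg
Nr4a2: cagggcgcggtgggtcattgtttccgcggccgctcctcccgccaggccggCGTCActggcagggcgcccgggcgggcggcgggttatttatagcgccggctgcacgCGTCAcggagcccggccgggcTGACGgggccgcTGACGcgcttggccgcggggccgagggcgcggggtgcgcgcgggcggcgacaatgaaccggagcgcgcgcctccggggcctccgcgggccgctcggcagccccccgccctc
Nr4a3: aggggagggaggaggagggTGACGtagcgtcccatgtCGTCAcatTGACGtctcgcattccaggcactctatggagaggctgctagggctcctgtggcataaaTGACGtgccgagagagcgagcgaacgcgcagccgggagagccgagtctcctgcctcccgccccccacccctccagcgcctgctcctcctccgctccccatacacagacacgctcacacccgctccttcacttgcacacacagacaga

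The half-site AGGTCA occurred on either strand in 18.2% of the 55 windows of members and in 16.3% of all. The longer ERR site TCAAGGTCA and the direct repeats DR4 and DR5, in which copies of AGGTCA follow each other at a fixed spacing, all contain AGGTCA and were in 0 of the members' windows and in 0.423%, 0.0152% and 0.00913% of all. Of 35 members 34 had a window.

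Of 17 NR4A partners and immediate early genes 16 were tested and none was called, with medians of 0.06, -0.08 and -0.04.

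Nr0b2 encodes SHP, a receptor without a DNA-binding domain that represses other nuclear receptors, best known in the liver. It ranged from 3.62 FPKM in donepezil 4 to 11.9 in saline 5. Its differences were -0.42 (SE 0.22, limma adjusted p = 0.375) for donepezil against saline and 0.48 (SE 0.22, limma adjusted p = 0.321) for encenicline against donepezil. Without donepezil 4 they were -0.22 and 0.28.

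The 11 receptors under the filter ranged from low but countable levels down to 1 read in all. Nr1h4 (the bile acid receptor FXR), Nr5a2, Nr6a1, Vdr (the vitamin D receptor), Rorb and Esr1 (oestrogen receptor alpha) had reads in all 15 libraries, 131, 228, 375, 183, 117 and 109 in total. Nr6a1, at 13 to 38 reads per library, and Nr5a2, at 7 to 30, were above 3 reads in each of the 15. Pgr, the progesterone receptor, had 12 reads, 7 of them in donepezil 4, and 11 libraries at 0. The xenobiotic receptors Nr1i3 and Nr1i2 had 10 and 3 reads, with all 3 of Nr1i2 in donepezil 4, and 74.9% of the exon bases of Nr1i3 are shared with Tomm40l on the other strand. Hnf4a, the liver receptor, had 5 reads and Esr2 had 1. A count of 0 allows up to 3 reads per library, which is 0.0343 to 0.0463 FPKM for Hnf4a and 0.0492 to 0.0664 for Esr2, for counting error only. These genes were not tested, so no difference between the groups is given.

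Among the cofactors through which these receptors act, 1 coactivator and 1 corepressor were called. Of 20 coactivators 19 were tested, and 1 rose with donepezil against saline (Cited2, a partner of CBP and p300, 0.65, SE 0.14, limma adjusted p = 0.0276), with a list median of 0.03. That is 5.26% of those tested, and 2.12% of all genes were called. Of 13 corepressors 12 were tested, and 1 (8.33%) rose in the same comparison: Tbl1xr1, a subunit of the NCoR complex (0.44, SE 0.08, limma adjusted p = 0.0122), at 4.00 ± 0.0801 FPKM with saline and 5.62 ± 0.623 with donepezil (SD, n = 5 each). No cofactor was called in the other comparisons, where the medians were -0.04 and -0.08 for coactivators and -0.00 and -0.06 for corepressors. Among the 14 receptors outside the group described here, 8 were tested and 1 was called: Nr3c2, the mineralocorticoid receptor, was higher with encenicline than with donepezil (0.58, SE 0.12, limma adjusted p = 0.0402), at 2.61 ± 0.288 against 1.60 ± 0.326 FPKM (SD, n = 5 each). This call, 12.5% of those tested beside 0.933% of all genes, was lost without donepezil 4. The calls of Nr3c2 and Cited2 were lost without the 2 libraries of conflicting label and also with TPM. Of 14 vitamin D and xenobiotic targets 3 were tested and none was called, with medians of 0.06, 0.21 and 0.16.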

How the data were processed

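RNA of 15 banded mouse hearts, 5 per group, was sequenced and summarised by the authors as FPKM, and the deposited matrix gives FPKM per gene with gene length and GRCm38 coordinates. HISAT, featureCounts 1.5.0-p3 and DESeq 1.8.3 are named in the submitters' processing notes, which give neither their order nor the use of strand. FPKM times gene length and 1 constant per library gave whole reads to within 0.05 reads in 100% of values, with library sizes 0.925 to 1.15 times the recovered totals; the origin of that factor is not given in the sources used here. The 27 symbols that a spreadsheet had turned into dates were restored by gene identifier.

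Genes with 0.5 FPKM or more in 5 or more libraries, 13396 of 54532, were fitted with limma 3.58.1 (R 4.3.3, tables read with data.table, version 1.17.8) on log2(FPKM + 0.5), with a variance prior that follows the mean, over all 15 libraries and without a replicate block. Tests are two-sided with Benjamini-Hochberg adjustment. The fit was also run on simulated counts with known changes in the donepezil group alone. These counts held no library that stood apart and no conflicting labels, so the run cannot speak to either. The labels do not state that each library is 1 mouse, so p-values measure the spread between these libraries. Correlations between libraries of a group were 0.956 to 0.985, and chi-square per gene was 6.63 or more for every pair, so no pair looked like 1 library entered again. Same-numbered libraries were not paired. The members, gene lists and tests were chosen with earlier results of these data known. Every library's value is given for members called, for those whose groups do not overlap and for the 3 smallest p in each comparison; Esrra, Pparg and Nr4a1 were added after their values were seen. The alternatives changed the pseudocount (0.1 or 1), the filter (none, or 2 FPKM), the scaling (median ratios, quantiles, TPM, or without mitochondrially encoded genes) and the model (the 10 libraries compared alone, library weights, voom on whole reads, or the replicate number as a block). Others took the label conflict into account or left out each library in turn. Promoter windows come from RefSeq (GRCm38.p6).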

Additional observations from a re-analysis of the deposited data

Results flagged for a closer look

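Over 81 sets of 5 libraries, 5 had 1 library standing apart from the other 4 of its group by Dixon's criterion, and chance alone would mark about 5% of sets. Nr2c1 was at 1.66 FPKM in donepezil 2 (the others 2.12 to 2.19) and at 1.38 FPKM in encenicline 1 (the others 1.51 to 1.54). The second of these is one of the 2 libraries whose treatment field names another group. Rarg was at 7.68 FPKM in saline 4, with 9.01 to 9.46 in the other saline libraries. Pparg was at 7.52 FPKM in saline 5, with 4.89 to 5.34 in the others. The number of genes above 0 was 25893 in donepezil 4 against 19789 to 20439 in the rest of its group, and this library was the lowest of all 15 for 8 of the 24 tested receptors. Encenicline 2 was the highest of the 15 for 8 of the 24. The same counts were not made over all genes tested, so whether these extremes are particular to the receptors was not tested.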

How the results depend on the processing

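Of 2073 member values under the alternatives, 117 changed sign, 0 of them with an unadjusted p under 0.05 in the reported fit; such changes of uncalled values were not counted as reversals. The call was gained in 12 and lost in 15, all 15 of them Nr2c1 in encenicline against donepezil. Members called in that comparison became 0 with no filter, TPM, the replicate block, limma voom, the 2 libraries of conflicting label left out and groups by the treatment field, and 2 with a filter at 2 FPKM, library weights and a pseudocount of 1, where Rarg joined. With only 10 libraries the 1 call was Nr4a3 in place of Nr2c1 (limma, Benjamini-Hochberg adjusted p of Nr2c1 = 0.0674). In donepezil against saline 0 members became 1 with the filter at 2 FPKM (Rarg) and 3 with library weights (Thrb, Rarg and Pparg). With single libraries left out, members called ran from 0 to 1 in donepezil against saline and from 0 to 2 in encenicline against donepezil, and were 0 in encenicline against saline.

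Genes called in donepezil against saline, 284 as reported, were 119 with no filter, 162 with TPM, 63 with only 10 libraries, 750 with library weights, 82 without the 2 libraries of conflicting label, 0 by the treatment field, and 105 to 409 with single libraries left out. In encenicline against donepezil, 125 as reported, they were 46, 53, 116, 363, 27 and 0 in that order, and 48 to 177 with single libraries left out. In encenicline against saline the count was 0, and 1 without donepezil 4. The count model on recovered reads, limma voom, called 279, 0 and 154 genes in the 3 comparisons. The cause of these changes was not tested. Scaling changed the split into higher and lower: 158 and 126 became 56 and 106 with TPM, 106 and 173 with voom and 127 and 151 once mitochondrially encoded genes were set aside, for donepezil against saline, and 59 and 66 became 17 and 36 with TPM and 50 and 79 with those genes set aside between the drugs.

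Same-numbered libraries deviated together weakly at most: 4 of 15 pairs had a correlation over 0.1 (-0.09 to 0.20), and 4 libraries correlated best with their own number. The median correlation was 0.04 for same-numbered pairs and -0.02 for the others. With the replicate block 298, 0 and 114 genes were called, and Nr2c1 had an adjusted p of 0.0603 (limma).

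Depth limits the low receptors: Nr2c1 rests on 85 to 174 reads per library and Nr4a2 on 16 to 59.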
